A study of Mus musculus with 6 samples.

Results

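The genes of the interleukin receptors were examined in microinjected dorsal root ganglia (DRGs), which hold the cell bodies of the sensory neurons together with glia, vessels, and resident immune cells. They were all rows of the gene count table whose symbol starts with Il, a number, and the letter r, which gave 41 of 48440 rows, and 38 of them passed the expression filter. The other 3, *Il11ra2*, *Il20ra*, and *Il22ra2*, had at most 15 counts in any library and were not tested. RNA was sequenced from injected ipsilateral L3/4 ganglia of wild-type male mice. The control group of 3 libraries was given AAV5-*Gfp*, an adeno-associated virus encoding green fluorescent protein, and the other group of 3 was given a mixture of the viruses AAV5-*V1* and AAV5-*V2* (AAV5-*V1+V2*), one for each transcript variant of *NIS-lncRNA*. Both groups were thus injected with virus, and no library of uninjected DRGs was analysed here. The question was which genes change in the DRG when *NIS-lncRNA* is overexpressed. The text deposited with the data gives 5 weeks after microinjection for tissue collection and 4 weeks for the expression profile. CD1 mice are named for microinjection of these viruses, without reference to the sequenced DRGs themselves. The age of the sequenced mice, the promoter of the viruses, and whether each library came from 1 mouse or from pooled ganglia are not given in the sources used here, so that the p-values measure only the spread between these libraries. Total counts were 32025612 to 34764282 per library, mitochondrial transcripts took 11.2% to 12.5% of them, and the 41 genes together took 0.0494% to 0.050% in control libraries and 0.0560% to 0.0766% in AAV5-*V1+V2* libraries.

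Interleukins are secreted messengers of the immune system, and each is bound by a receptor of paired chains, of which one often serves several ligands. *Il2rg* encodes the common gamma chain, shared by the receptors of IL-2, IL-4, IL-7, IL-9, IL-15, and IL-21, while *Il10rb*, *Il12rb1*, and *Il1rap* are the shared chains of other families. Most of these receptors signal through JAK kinases and STAT factors, whereas those of IL-1, IL-18, and IL-33 carry a TIR domain and use the adaptor MyD88. Lymphocytes and myeloid cells are the best-known carriers, but sensory neurons express the IL-31 receptor, which is known for itch, and *Il1rapl1* and *Il1rapl2* encode members of the IL-1 receptor family that organize synapses in neurons. The 41 genes were accordingly divided into 13 lymphoid genes, 5 genes of myeloid and mast cells, 3 neuronal genes, and 20 that are broad, stromal, or epithelial.

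Of the 38 genes tested, 20 were higher in AAV5-*V1+V2* DRGs, 2 were lower, and 16 did not pass an adjusted p of 0.05 (quasi-likelihood test of edgeR, with p adjusted by Benjamini-Hochberg over the 18593 genes tested). Among all genes tested, 10.1% were higher and 5.27% were lower. The median log2 fold change of the 38 genes was 0.60, and that of all genes tested was -0.0003. Of the lymphoid genes, 11 of 13 were higher, as were 2 of 5 of the myeloid and mast cell genes and 7 of 17 of the broad genes tested, whereas 2 of 3 neuronal genes were lower. Every AAV5-*V1+V2* library lay above every AAV5-*Gfp* library for 26 genes and below it for 4, which was the case for 23.4% and 22% of all genes tested. With a 2-fold change also required, 14 genes were higher, against 5.66% of all genes tested, and 0 were lower. *Il9r* was under the filter level of 0.306 CPM (counts scaled to library size) in every AAV5-*Gfp* library and *Il23r* in 1 of them, so that these genes passed the filter through their high group. Among the other 36 genes, 18 were higher, 2 were lower, and the median log2 fold change was 0.59. In tissue of many cell types, a change in the number of cells of a type and a change in RNA per cell cannot be told apart.

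The calls depended on the control libraries. Without AAV5-*Gfp* replicate 1, 7 of the 38 genes were higher and 0 were lower. Without AAV5-*Gfp* replicate 2 and without AAV5-*Gfp* replicate 3, edgeR's test called 0 of the 38 genes in either direction. In each of these fits, 24 of them had an unadjusted p under 0.05 in the higher direction and 2 in the lower one. The 22 called genes had adjusted p-values of 0.0815 to 0.152 without replicate 2 and of 0.0875 to 0.160 without replicate 3, and all 22 kept their direction in every fit that left out a library. Without AAV5-*V1+V2* replicate 1, 2, or 3, the numbers of higher genes were 20, 14, and 22, and those of lower genes were 1, 1, and 2. The called ligands and pathway genes described below were also lost without AAV5-*Gfp* replicate 2 or 3. The share of all genes called in these fits is not given here, so the losses cannot be read as particular to the receptor genes.

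**Figure D1:**
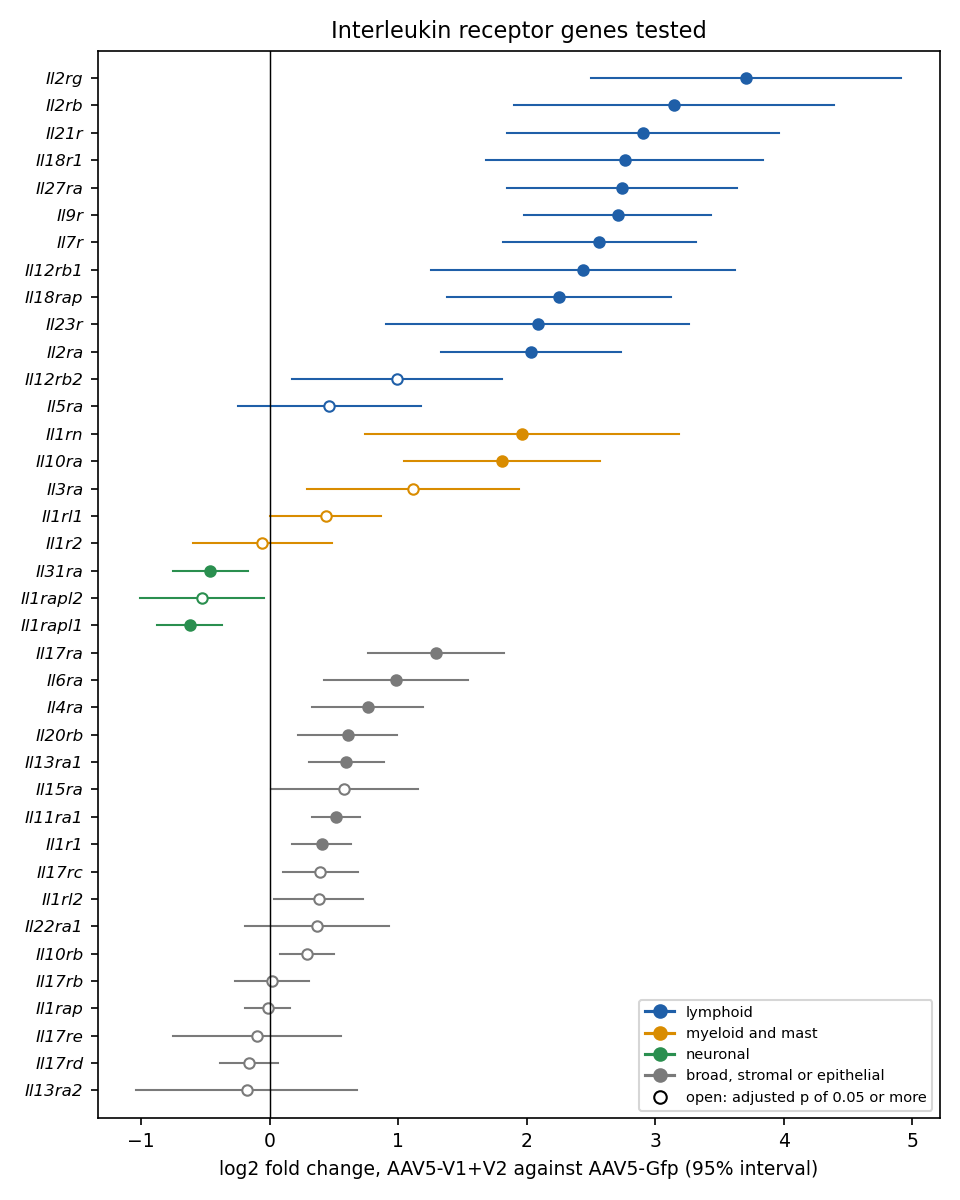
Log2 fold change of AAV5-*V1+V2* against AAV5-*Gfp* (horizontal axis) for each of the 38 interleukin receptor genes tested, ordered by class and size. Points are edgeR estimates from 3 libraries a group, lines are 95% intervals, and open points did not pass an adjusted p of 0.05. The 11 called lymphoid genes lie between 2.03 and 3.71, and the 3 neuronal genes lie between -0.62 and -0.46.

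The largest rise was that of *Il2rg*, the common gamma chain itself. In replicates 1, 2, and 3, in this order here and in what follows, it had 49, 22, and 31 counts with AAV5-*Gfp* and 765, 353, and 249 counts with AAV5-*V1+V2*, or 1.05 ± 0.44 against 13.7 ± 8.4 CPM (mean ± SD, n = 3), a log2 fold change of 3.71 (SE 0.52, adjusted p = 0.0144 from edgeR's test). The groups were far apart, and AAV5-*V1+V2* replicate 1 held more counts than the other 2 libraries of its group together. Without that library, the log2 fold change of *Il2rg* was 3.10, a fold 1.53 times smaller. Counts of *Il2rg* are uncertain, since 30.5% of its exonic bases are shared with *Gm20489* on the same strand. *Gm20489* had 11, 29, and 16 counts with AAV5-*Gfp* and 89, 29, and 20 with AAV5-*V1+V2*. *Il2rb*, the beta chain of the IL-2 and IL-15 receptors, had 63, 32, and 29 counts with AAV5-*Gfp* and 648, 268, and 203 with AAV5-*V1+V2* (log2 fold change 3.14, SE 0.53, adjusted p = 0.0169 from edgeR's test, and 2.46 without AAV5-*V1+V2* replicate 1). *Il2ra*, the alpha chain that gives the IL-2 receptor its high affinity and marks regulatory and activated T cells, had 29, 30, and 37 counts with AAV5-*Gfp* and 183, 90, and 131 with AAV5-*V1+V2* (2.03, SE 0.30, adjusted p = 0.0144 from edgeR's test). All 3 chains of the high-affinity IL-2 receptor were therefore higher, and *Il2* itself had between 0 and 4 counts in all 6 libraries.

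Private chains that pair with the common gamma chain in lymphocytes were also higher, except for *Il15ra*, which was not called. *Il21r*, which is found on B and T cells, had 149, 82, and 57 counts with AAV5-*Gfp* and 1145, 572, and 483 with AAV5-*V1+V2* (log2 fold change 2.90, SE 0.45, adjusted p = 0.0147 from edgeR's test). *Il7r*, which lymphocytes need for survival, had 91, 53, and 52 counts against 539, 353, and 296 (2.56, SE 0.32, adjusted p = 0.0139 from edgeR's test). For both genes AAV5-*Gfp* replicate 1 was the highest control library and AAV5-*V1+V2* replicate 1 the highest of all, as for 17 and 19 of the 20 higher genes. Replicate 1 was the highest AAV5-*Gfp* library for 32.5% of all genes tested and the highest AAV5-*V1+V2* library for 41.4%. *Il9r*, a receptor of T cell subsets, had only 4, 3, and 3 counts with AAV5-*Gfp* and 23, 21, and 25 with AAV5-*V1+V2* (2.71, SE 0.31, adjusted p = 0.0139 from edgeR's test). It was the exception among the higher genes, since its AAV5-*V1+V2* libraries were almost level and replicate 3 was the highest.

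Receptors of the cytokines that direct T and NK cells were higher as well. *Il18r1*, the ligand-binding chain of the IL-18 receptor, had 94, 36, and 39 counts with AAV5-*Gfp* and 587, 317, and 271 with AAV5-*V1+V2* (log2 fold change 2.76, SE 0.46, adjusted p = 0.0165 from edgeR's test, and 3.36 without AAV5-*Gfp* replicate 1). Its accessory chain *Il18rap* had 114, 76, and 79 counts against 688, 319, and 303 (2.25, SE 0.37, adjusted p = 0.0163 from edgeR's test). Both chains of the IL-18 receptor thus rose. *Il27ra*, the receptor of IL-27, had 39, 31, and 25 counts against 325, 194, and 129 (2.74, SE 0.38, adjusted p = 0.0144 from edgeR's test). *Il12rb1*, the chain that the receptors of IL-12 and IL-23 share, had 32, 15, and 20 counts against 210, 93, and 69 (2.43, SE 0.50, adjusted p = 0.0251 from edgeR's test, and 1.81 without AAV5-*V1+V2* replicate 1). *Il23r*, the private chain for IL-23, had 15, 10, and 11 counts against 90, 39, and 28 (2.08, SE 0.50, adjusted p = 0.0364 from edgeR's test, and 1.43 without AAV5-*V1+V2* replicate 1). For none of these genes did the groups overlap. The private chain for IL-12, *Il12rb2*, had 93, 117, and 148 counts with AAV5-*Gfp* and 373, 187, and 167 with AAV5-*V1+V2*, without overlap, and was not called (0.99, SE 0.35, adjusted p = 0.0943 from edgeR's test). Its counts are uncertain, since 40% of its exonic bases are shared with *Serbp1* on the opposite strand, which had between 3195 and 3870 counts in each library. The last lymphoid gene, *Il5ra*, which B-1 cells and eosinophils carry, overlapped between the groups with 23 to 38 and 32 to 60 counts (0.46, 95% interval -0.25 to 1.17).

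None of the 11 lymphoid calls was kept in the fits that lacked AAV5-*Gfp* replicate 2 or 3, where their adjusted p-values from edgeR's test were 0.0815 to 0.123 and 0.0875 to 0.130. Of the 11, 6 were kept without AAV5-*Gfp* replicate 1, where *Il2ra*, *Il2rb*, *Il12rb1*, *Il18rap*, and *Il23r* were lost, and 10 without AAV5-*V1+V2* replicate 2, where *Il23r* was lost. Markers of lymphocytes moved with these genes. The summed level of 10 markers of T and NK cells was 4.42 to 11.2 CPM after AAV5-*Gfp* and 35.4 to 78.5 CPM after AAV5-*V1+V2*, and 9 of the 10 were higher. That of 6 markers of B and plasma cells was 10.6 to 19.1 and 242 to 369 CPM, and all 6 were higher. Among 5 genes listed for lymph node stroma, *Cr2*, *Fcer2a*, and *Glycam1* were higher, and *Ccl21a* and *Madcam1* were not called. The summed level of the 5 was 10.1 to 11.7 and 27.6 to 50.8 CPM. *Cr2* and *Fcer2a* are also B cell genes, so that a rise of this list cannot be told apart from that of B cells. No marker of these lists was at 0 in every AAV5-*Gfp* library, and their part in the rise of the receptors was not tested.

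**Figure D2:**
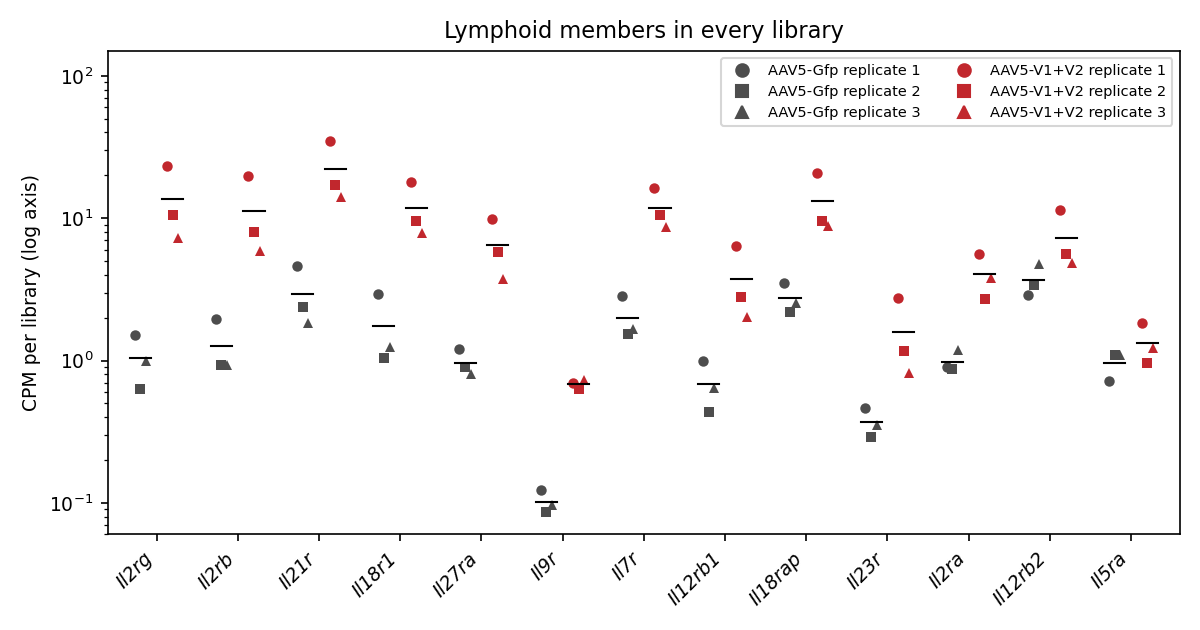
CPM (vertical log axis) of the 13 lymphoid interleukin receptor genes in each library, with AAV5-*Gfp* in grey and AAV5-*V1+V2* in red. Symbols mark replicates 1, 2, and 3 and short lines the mean of 3 libraries. AAV5-*V1+V2* replicate 1 is the highest library except for *Il9r*, and the groups overlap only for *Il5ra*.

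Set against *Cd3e*, a chain of the T cell receptor complex that marks T cells, the receptors did not move as 1 block. The log2 ratio of *Il2rg* to *Cd3e* counts was 1.60 ± 0.59 after AAV5-*Gfp* and 1.33 ± 0.22 after AAV5-*V1+V2* (mean ± SD, n = 3), and the groups overlapped. The ratio of *Il7r* to *Cd3e* was 2.56 ± 0.43 and 1.24 ± 0.30, and that of *Il21r* to *Cd3e* was 3.04 ± 0.15 and 2.07 ± 0.10. For the ratios of *Il7r* and *Il21r* no library of one group reached the other. *Cd3e* had 20, 9, and 6 counts with AAV5-*Gfp*, so the control ratios rest on few reads, and the pairs were chosen after the values were seen and were given no test.

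Promoters of 4 called lymphoid genes, chosen after their values were seen, and of both called neuronal genes are shown so that their start sites can be compared. Each line gives the 250 bases before a RefSeq start site, 5′ to 3′ on the gene's strand, for windows without a base in a GENCODE exon, and capitals mark matches, on either strand, to the letters searched.
Il2rg, GRCm38.p6 chrX:101268256-101268505, minus strand: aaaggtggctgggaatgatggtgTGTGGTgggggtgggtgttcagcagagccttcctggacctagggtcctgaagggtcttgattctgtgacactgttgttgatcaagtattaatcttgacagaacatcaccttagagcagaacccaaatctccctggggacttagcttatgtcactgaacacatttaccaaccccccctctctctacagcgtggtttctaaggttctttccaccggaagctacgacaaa
Il21r, GRCm38.p6 chr7:125603179-125603428, plus strand: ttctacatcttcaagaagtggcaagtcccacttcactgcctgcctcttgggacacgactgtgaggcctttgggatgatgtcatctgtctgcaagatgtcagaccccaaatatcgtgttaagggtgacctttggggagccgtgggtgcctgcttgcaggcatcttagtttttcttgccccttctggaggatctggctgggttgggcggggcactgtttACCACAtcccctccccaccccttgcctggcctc
Il9r, GRCm38.p6 chr11:32200280-32200529, minus strand: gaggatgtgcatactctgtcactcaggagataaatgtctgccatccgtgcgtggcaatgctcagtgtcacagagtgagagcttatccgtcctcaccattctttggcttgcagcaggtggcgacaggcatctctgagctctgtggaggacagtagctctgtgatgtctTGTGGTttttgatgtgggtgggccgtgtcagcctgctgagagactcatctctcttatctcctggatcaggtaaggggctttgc
Il2ra, GRCm38.p6 chr2:11642542-11642791, plus strand: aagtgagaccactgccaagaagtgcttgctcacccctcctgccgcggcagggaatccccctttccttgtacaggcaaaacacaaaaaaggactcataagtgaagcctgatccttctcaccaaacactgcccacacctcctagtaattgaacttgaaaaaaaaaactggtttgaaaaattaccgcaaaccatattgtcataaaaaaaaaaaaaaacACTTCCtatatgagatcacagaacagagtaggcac
Il1rapl1, GRCm38.p6 chrX:88115949-88116198, minus strand: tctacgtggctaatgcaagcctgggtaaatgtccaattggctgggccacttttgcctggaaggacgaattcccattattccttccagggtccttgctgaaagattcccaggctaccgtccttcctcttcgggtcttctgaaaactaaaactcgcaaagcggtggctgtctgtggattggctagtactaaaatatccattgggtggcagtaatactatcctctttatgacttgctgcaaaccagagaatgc
Il31ra, GRCm38.p6 chr13:112580663-112580912, minus strand: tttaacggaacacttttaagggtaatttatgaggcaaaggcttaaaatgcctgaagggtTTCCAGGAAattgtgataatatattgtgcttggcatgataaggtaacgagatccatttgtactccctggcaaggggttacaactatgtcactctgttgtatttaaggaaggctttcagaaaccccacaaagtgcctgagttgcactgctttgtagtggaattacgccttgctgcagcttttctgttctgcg
The capitals are the letters TGTGGT or their reverse complement, which RUNX factors bind, in *Il2rg*, *Il21r*, and *Il9r*. They are the core GGAAGT of ETS factors, read on the opposite strand, in *Il2ra*, and the STAT letters TTCNNNGAA in *Il31ra*. *Il1rapl1* held none of the 5 motifs searched. The *Il31ra* window lies inside the gene as GENCODE M21 draws it, between exons.

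RefSeq windows of GRCm38.p6 were at hand for 34 of the 41 genes, and genes with several start sites counted once if any window held the letters. The ETS core GGAAGT was found in 8 of 15 higher genes, 4 of 15 genes that were not called, and 0 of 2 lower genes, and in 19.7% of all 32851 windows. The RUNX letters TGTGGT were found in 4 of 15, 2 of 15, and 0 of 2 genes, and in 14% of all windows. The STAT letters TTCNNNGAA were found in 2 of 15, 2 of 15, and 1 of 2 genes, and in 7.02% of all windows. The AP-1 letters TGACTCA were found in 1 of 15, 4 of 15, and 0 of 2 genes, and in 4.46% of all windows, and the IRF letters (GAAA, NN, and GAAA again) in 0 of the 34 genes and 2.98% of all windows. The shares over all windows count windows and not genes, so a gene with several windows had more chances of a match. Unlike the windows printed above, those counted could overlap GENCODE exons. With the ETS core these were *Il6ra* (250 exonic bases), *Il11ra1* (247), *Il18r1* (114), and *Il7r* (86) among higher genes. Among genes not called they were *Il3ra* (220), *Il1r2* (117), and *Il17rc* (28). A match is a string of letters and not a bound site.

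Of the myeloid and mast cell genes, *Il10ra* and *Il1rn* were higher. *Il10ra*, the ligand-binding chain of the IL-10 receptor, had 320, 290, and 282 counts with AAV5-*Gfp* and 1634, 886, and 661 with AAV5-*V1+V2*, or 9.11 ± 0.78 against 31.8 ± 16 CPM (mean ± SD, n = 3), a log2 fold change of 1.81 (SE 0.33, adjusted p = 0.0189 from edgeR's test). Its partner *Il10rb* had 919, 1064, and 885 counts against 1302, 1160, and 1116 and was not called (0.29, 95% interval 0.08 to 0.50, adjusted p = 0.0673 from edgeR's test). The AAV5-*V1+V2* libraries were above the controls for both chains, and the log2 ratio of *Il10ra* to *Il10rb* went from -1.68 ± 0.18 to -0.27 ± 0.55. *Il1rn*, the secreted antagonist that blocks the IL-1 receptor and is a ligand rather than a receptor, had 30, 21, and 26 counts with AAV5-*Gfp* and 184, 76, and 47 with AAV5-*V1+V2* (1.96, SE 0.52, adjusted p = 0.0463 from edgeR's test). Its 3 AAV5-*V1+V2* libraries were widely spread, and without replicate 1 the log2 fold change of *Il1rn* was 1.21, a fold 1.68 times smaller. Without AAV5-*V1+V2* replicate 2, *Il1rn* was not called. Neither gene was called without AAV5-*Gfp* replicate 1, 2, or 3, with adjusted p-values of 0.0586 to 0.147 over those fits.

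The other genes of this class did not pass the test. *Il3ra*, the IL-3 receptor chain of basophils and dendritic cells, had 35, 45, and 41 counts against 140, 60, and 68, without overlap (log2 fold change 1.12, SE 0.35, adjusted p = 0.0707 from edgeR's test). *Il1rl1*, which binds IL-33 and is a hallmark of mast cells and type 2 lymphoid cells, overlapped between the groups (112, 111, and 91 against 173, 115, and 146 counts, 95% interval of the log2 fold change 0.00 to 0.87). The decoy receptor *Il1r2* overlapped as well (69, 81, and 86 against 101, 65, and 66 counts, 95% interval -0.60 to 0.48). Of the marker lists, 5 of 6 macrophage genes were higher, with a summed level of 96.9 to 133 CPM in AAV5-*Gfp* and 190 to 347 CPM in AAV5-*V1+V2* libraries. None of 6 neutrophil genes was called (77.2 to 86.6 and 107 to 213 CPM), nor was any of 6 mast cell genes (91.1 to 103 and 75.7 to 91.7 CPM). *Kit* made up most of the mast cell sum, with a mean of 76.0 of 95.3 CPM in AAV5-*Gfp* and 65.9 of 83.9 CPM in AAV5-*V1+V2* libraries. The groups overlapped for each of the 6 mast cell genes. The part of these cells in the values of the receptors was not tested.

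Of the broad genes, 7 of 17 tested were higher, and 6 of these by less than 2-fold. The summed level of 4 fibroblast genes was 648 to 857 and 913 to 1325 CPM, and that of 4 endothelial genes was 79.6 to 90.9 and 101 to 130 CPM. Single genes carried much of these rises, *Col1a1* (mean 168 against 381 CPM) and *Pecam1* (26.7 against 49.1 CPM). Every AAV5-*V1+V2* library was above the controls for 2 of the 4 fibroblast genes and 1 of the 4 endothelial genes. The share was 23.4% of all genes tested, and the other markers overlapped. Of these 8 markers 1 endothelial gene was called, and their part in the values of the receptors was not tested. *Il17ra*, the chain shared by the IL-17 receptors, rose most, from 288, 309, and 229 counts to 937, 576, and 551 (log2 fold change 1.30, SE 0.23, adjusted p = 0.0176 from edgeR's test). The other IL-17 receptor genes were not called, and *Il17rc*, its partner for IL-17A, had 253, 251, and 209 against 278, 350, and 332 counts (0.39, SE 0.12, adjusted p = 0.0691 from edgeR's test). *Il6ra*, the IL-6 binding chain, had 434, 445, and 524 counts with AAV5-*Gfp* and 1310, 794, and 737 with AAV5-*V1+V2* (0.98, SE 0.24, adjusted p = 0.0366 from edgeR's test). Its signalling partner gp130, encoded by *Il6st*, was abundant, at 547 to 568 and 483 to 553 CPM, and was not called (-0.08, adjusted p = 0.56 from edgeR's test). *Il4ra*, which pairs with the common gamma chain or with *Il13ra1*, had 972, 1013, and 778 against 2029, 1496, and 1254 counts (0.76, SE 0.18, adjusted p = 0.0364 from edgeR's test). *Il13ra1* itself had 424, 452, and 384 against 753, 617, and 575 counts (0.60, SE 0.12, adjusted p = 0.0258 from edgeR's test). Both chains of the receptor that non-lymphoid cells use for IL-4 and IL-13 were thus higher, and the decoy *Il13ra2* overlapped at 12 to 23 counts.

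The smaller rises had tighter libraries. *Il11ra1*, the IL-11 receptor of stromal cells, had 1061, 1056, and 877 counts with AAV5-*Gfp* and 1501, 1449, and 1437 with AAV5-*V1+V2* (log2 fold change 0.52, SE 0.08, adjusted p = 0.0146 from edgeR's test). *Il1r1*, the signalling receptor of IL-1, had 766, 827, and 785 against 1191, 955, and 1075 counts (0.40, SE 0.10, adjusted p = 0.0359 from edgeR's test). *Il20rb*, a chain of the IL-20 receptors of epithelia, had 88, 80, and 77 against 146, 115, and 121 counts (0.61, SE 0.16, adjusted p = 0.0477 from edgeR's test). The groups did not overlap for any of these genes. Reads of *Il11ra1* cannot be told with certainty from those of its near-identical paralog *Il11ra2*, which was listed with 2 to 9 counts. *Il1rap*, the accessory chain that the receptors of IL-1, IL-33, and IL-36 need, had 1233, 1417, and 1140 against 1310, 1281, and 1236 counts, and its log2 fold change of -0.02 had a 95% interval of -0.19 to 0.16. *Il15ra*, which presents IL-15 to cells with *Il2rb*, had 287, 278, and 260 against 596, 336, and 326 counts and was not called (0.58, 95% interval 0.01 to 1.15). Without AAV5-*Gfp* replicate 2 or replicate 3, none of the 7 broad calls was kept, and without AAV5-*Gfp* replicate 1 only that of *Il11ra1*. Leaving out AAV5-*V1+V2* replicate 2 kept 3 of them, with *Il4ra*, *Il6ra*, *Il13ra1*, and *Il20rb* lost, and *Il20rb* was also lost without AAV5-*V1+V2* replicate 1 and without replicate 3.

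The 3 neuronal genes went the other way. *Il1rapl1* was the most abundant of all 41 genes per length of exon, at 23.6 CPM per kilobase with AAV5-*Gfp*, against 7.66 for *Il10rb*, the next. It had 6805, 7447, and 7311 counts with AAV5-*Gfp* and 4023, 4849, and 5514 with AAV5-*V1+V2*, or 220 ± 13 against 143 ± 19 CPM (mean ± SD, n = 3), and fell by 0.62 on the log2 scale (SE 0.11, adjusted p = 0.0177 from edgeR's test). *Il31ra* had 645, 617, and 672 counts against 414, 462, and 568 and fell by 0.46 (SE 0.13, adjusted p = 0.0477 from edgeR's test). *Il1rapl2* had 134, 148, and 175 counts against 84, 107, and 136 and was not called (-0.53, SE 0.21, adjusted p = 0.121 from edgeR's test). In each of them the AAV5-*V1+V2* libraries lay below every control, and AAV5-*V1+V2* replicate 1, in which lymphoid levels were highest, was the lowest. Neither call was kept without AAV5-*Gfp* replicate 1, 2, or 3, where the adjusted p-values from edgeR's test were 0.0542 to 0.160. That of *Il31ra* was also lost without AAV5-*V1+V2* replicate 1 and without replicate 2.

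General markers of DRG neurons moved with these genes. The summed level of 10 such markers was 5111 to 5437 CPM after AAV5-*Gfp* and 3165 to 4559 CPM after AAV5-*V1+V2*, with replicate 1 the lowest, and 7 of the 10 were lower in every AAV5-*V1+V2* library. Of all genes tested, 22% were lower in every AAV5-*V1+V2* library. *Pou4f1* alone of the 10 markers was called, and 5.27% of all genes tested were called lower. Relative to *Tubb3*, a tubulin of neurons, the log2 ratio of *Il1rapl1* counts was -2.74 ± 0.07 after AAV5-*Gfp* and -2.90 ± 0.23 after AAV5-*V1+V2* (mean ± SD, n = 3). That of *Il31ra* was -6.21 ± 0.08 and -6.22 ± 0.27, and that of *Il1rapl2* was -8.30 ± 0.21 and -8.37 ± 0.18. All of these ratios overlapped between the groups, and they were chosen after the values were seen and were given no test. *Osmr*, the partner chain of the IL-31 receptor, had 57.1 to 69.8 and 67.0 to 68.6 CPM and was not called (0.12, adjusted p = 0.349 from edgeR's test), and *Il31* itself had at most 1 count in any library.

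**Figure D3:**
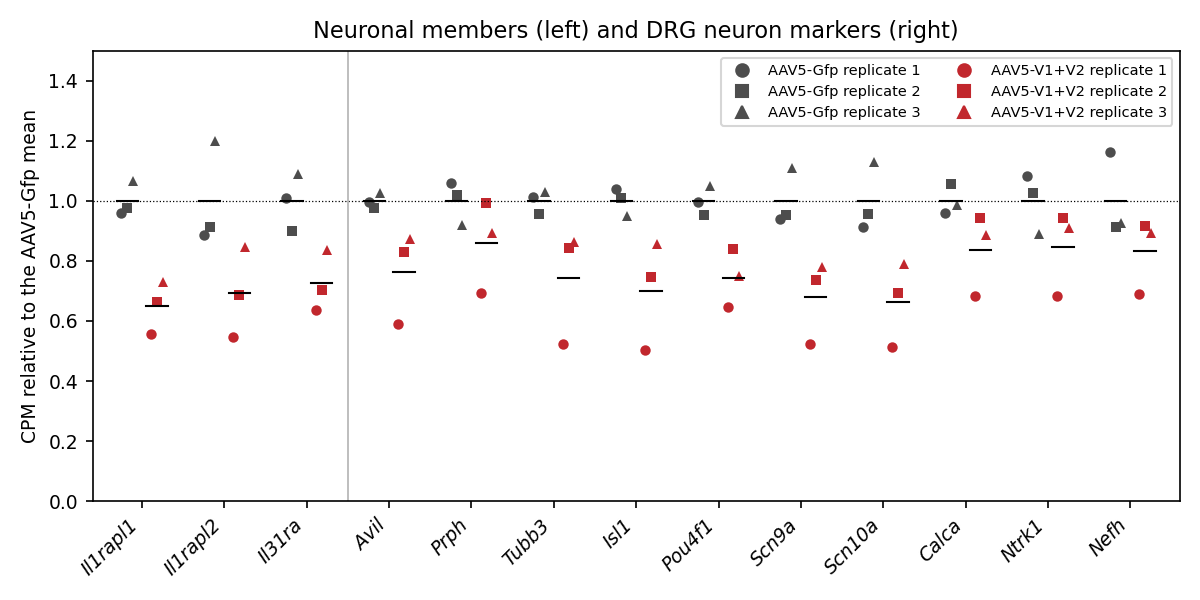
CPM relative to the AAV5-*Gfp* mean (vertical linear axis) of the 3 neuronal receptor genes, left of the line, and of 10 markers of DRG neurons, right of it, in each library. Symbols mark replicates and short lines the mean of 3 libraries. AAV5-*V1+V2* replicate 1 is the lowest red point in every column, and the groups do not overlap for the 3 receptor genes.

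Several of the genes lie side by side in the genome, and some neighbours differed in their values. Of 10 pairs of neighbours, the ratio of counts was apart between the groups for 6. It overlapped for the others, such as *Il17re* and *Il17rc*, 669 bases apart. Single genes lay wholly above the controls for 23.4% and wholly below for 22% of all genes tested. No such share was taken for ratios, so the count of pairs cannot be read as particular to neighbours. On chromosome 1 of GRCm38, *Il1r2*, *Il1r1*, *Il1rl2*, *Il1rl1*, *Il18r1*, and *Il18rap* follow each other on the plus strand from 40074079 to 40551705. Along this order the log2 fold changes were -0.06, 0.40, 0.38, 0.43, 2.76, and 2.25. *Il1rl1* ends 137 bases before *Il18r1* begins, and the log2 ratio of their counts went from 1.02 ± 0.70 to -1.37 ± 0.44 (mean ± SD, n = 3). On chromosome 7, *Il4ra* (125552120 to 125579474) and *Il21r* (125603429 to 125633570) are 23955 bases apart, and their log2 ratio went from 3.36 ± 0.57 to 1.20 ± 0.32. The ratio of *Il2ra* to *Il15ra*, 12097 bases apart on chromosome 2, went from -3.09 ± 0.26 to -1.64 ± 0.30. That of *Il12rb2* to *Il23r*, 46744 bases apart on chromosome 6, went from 3.26 ± 0.58 to 2.28 ± 0.26. These ratios are a description, and none was tested.

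**Figure D4:**
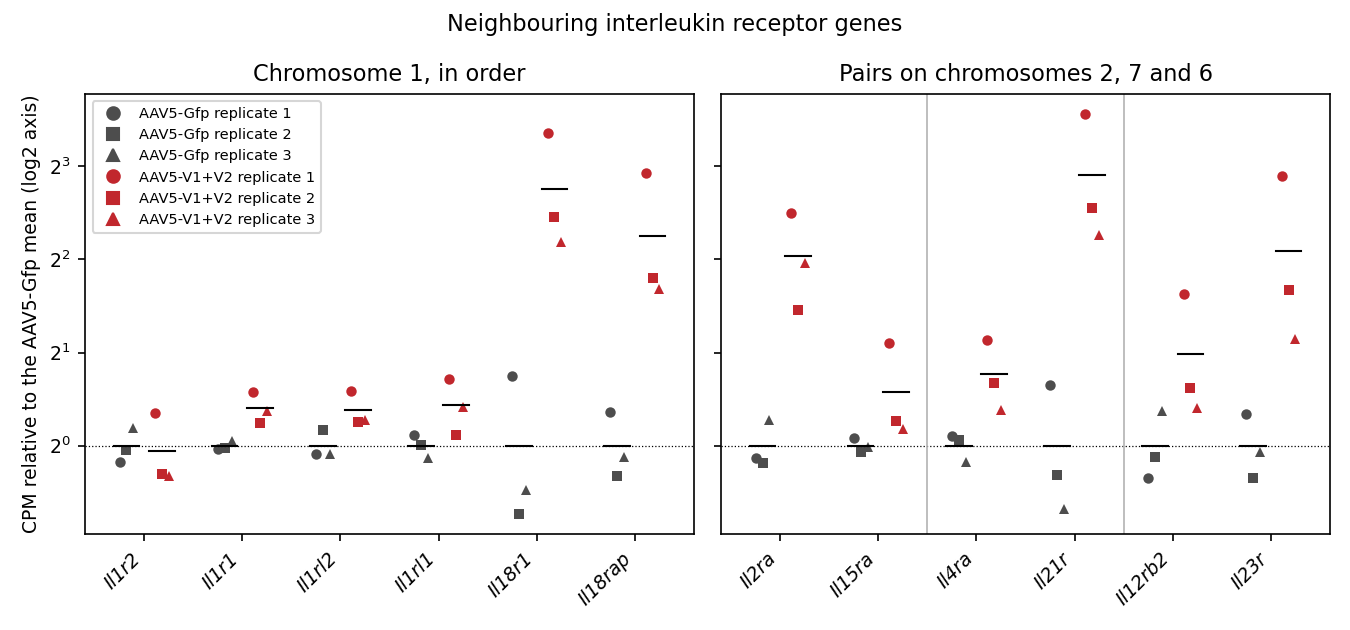
CPM relative to the AAV5-*Gfp* mean (vertical log2 axis) of 6 receptor genes in their order on chromosome 1 (left panel) and of 3 pairs of neighbours (right panel), in each library. Symbols mark replicates and short lines the mean of 3 libraries. The means of *Il18r1* and *Il18rap* with AAV5-*V1+V2* stand above those of the 4 genes before them, and that of *Il21r* above that of *Il4ra*.

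Of the interleukins and related ligands, 19 of 36 passed the filter, 7 were higher, and *Il4* was lower. Among all genes tested, 10.1% were higher and 5.27% were lower. Of the 7 ligands, *Il1a*, *Il12b*, and *Il21* passed the filter only through their high group, so the count partly reflects the filter. The 3 higher genes with the smallest adjusted p were *Il21*, *Il12b*, and *Il33*. *Il21*, the ligand of *Il21r* and a product of follicular helper T cells, had 4, 6, and 1 counts with AAV5-*Gfp* and 41, 24, and 30 with AAV5-*V1+V2* (log2 fold change 3.04, SE 0.47, adjusted p = 0.0146 from edgeR's test). *Il12b*, the subunit shared by IL-12 and IL-23, had 8, 6, and 2 against 73, 40, and 20 counts (3.004, SE 0.62, adjusted p = 0.0251 from edgeR's test). *Il33*, the ligand of *Il1rl1*, had 430, 336, and 319 against 672, 557, and 563 counts (0.69, SE 0.15, adjusted p = 0.0281 from edgeR's test). For IL-33 the ligand was higher, and its binding chain was not called. None of the 8 ligand calls was kept without AAV5-*Gfp* replicate 2 or replicate 3, and only that of *Il33* without AAV5-*Gfp* replicate 1. Leaving out AAV5-*V1+V2* replicate 2 kept those of *Il1a* and *Il21* only.

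The other 4 ligands that were higher included both agonists of *Il1r1*. *Il1a* had 1, 5, and 2 counts with AAV5-*Gfp* and 68, 18, and 17 with AAV5-*V1+V2* (log2 fold change 3.61, SE 0.82, adjusted p = 0.0317 from edgeR's test), and its estimate was 4.34 without AAV5-*Gfp* replicate 2 and 2.62 without AAV5-*V1+V2* replicate 1. *Il1b* had 18, 25, and 27 against 363, 179, and 52 counts (3.06, SE 0.68, adjusted p = 0.0296 from edgeR's test, and 2.27 without AAV5-*V1+V2* replicate 1). *Il1a*, like *Il21* and *Il12b*, was under the filter level of 0.306 CPM in every AAV5-*Gfp* library and passed the filter through its high group. *Il15* had 511, 449, and 447 against 919, 669, and 671 counts (0.65, SE 0.16, adjusted p = 0.0358 from edgeR's test). *Clcf1*, a ligand of the gp130 family, had 86, 87, and 53 against 252, 160, and 135 counts (1.25, SE 0.29, adjusted p = 0.0328 from edgeR's test), and its receptor chains *Cntfr*, *Lifr*, and *Il6st* were not called (-0.22, -0.33, and -0.08). *Il18* had 84, 90, and 56 against 111, 108, and 105 counts and was not called (0.47, adjusted p = 0.123 from edgeR's test). *Il7* had 142 to 145 and 141 to 149 counts and was not called either, while the receptors of both rose. *Il27* (2, 3, and 13 against 64, 26, and 13 counts, adjusted p = 0.0799 from edgeR's test) was not called, nor was its partner *Ebi3* (3, 12, and 13 against 52, 38, and 18 counts, adjusted p = 0.0585). *Il6*, *Il9*, *Il10*, *Il17a*, and *Il23a* had at most 18 counts in any library and were not tested.

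*Il4*, the ligand of *Il4ra*, is known as a product of type 2 helper T cells and mast cells, and it was lower while its receptor was higher. It had 968, 1020, and 970 counts with AAV5-*Gfp* and 600, 785, and 852 with AAV5-*V1+V2*, and fell by 0.44 on the log2 scale (SE 0.12, adjusted p = 0.0469 from edgeR's test). *Il13* and *Il5* of the same gene cluster had at most 2 and 14 counts in any library. Its neighbour *Kif3a*, a kinesin motor gene, had a log2 fold change of -0.40, with every AAV5-*V1+V2* library below the controls and replicate 1 the lowest, as for *Il4*. The median log2 fold change was -0.41 over the 10 markers of DRG neurons and -0.10 over the 6 mast cell genes, and the part of any of these in the value of *Il4* was not tested. The call of *Il4* was lost without any 1 of the 3 AAV5-*Gfp* libraries and without AAV5-*V1+V2* replicate 2.

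Of the shared chains and the genes further down the pathway, 0 were lower, and among all genes tested 10.1% were higher and 5.27% were lower. Of 11 shared chains and decoys, 5 were higher. Those with the smallest adjusted p were *Csf2rb*, the common beta chain of the IL-3, IL-5, and GM-CSF receptors (245, 267, and 224 against 2017, 809, and 679 counts, log2 fold change 2.23, SE 0.42, adjusted p = 0.0199 from edgeR's test), its mouse paralog *Csf2rb2* (115, 111, and 86 against 759, 284, and 283 counts, 2.06, adjusted p = 0.0239 from edgeR's test), and *Sigirr*, an inhibitor of the IL-1 receptor family (40, 38, and 36 against 137, 89, and 68 counts, 1.33, adjusted p = 0.0278 from edgeR's test). Of the private chains that pair with the beta chain, *Csf2ra*, for GM-CSF, was higher (154, 183, and 126 against 509, 280, and 270 counts, 1.17, adjusted p = 0.0334 from edgeR's test), and *Il3ra* and *Il5ra* were not called. Counts of *Csf2rb* and *Csf2rb2* are uncertain, since the copies are nearly identical. Without AAV5-*V1+V2* replicate 1 the log2 fold changes of *Csf2rb* and *Csf2rb2* were 1.56 and 1.40. None of the 5 calls was kept without any 1 of the 3 AAV5-*Gfp* libraries, and 3 were kept without AAV5-*V1+V2* replicate 2.

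Of 11 JAK and STAT genes, 4 were higher. *Stat4*, which acts below the IL-12 receptor, had 143, 104, and 109 counts with AAV5-*Gfp* and 1384, 609, and 443 with AAV5-*V1+V2* (log2 fold change 2.75, SE 0.44, adjusted p = 0.0157 from edgeR's test, and 2.10 without AAV5-*V1+V2* replicate 1). *Jak3*, the kinase that binds the common gamma chain, had 161, 161, and 121 against 756, 356, and 342 counts (1.69, SE 0.33, adjusted p = 0.0228 from edgeR's test). The broadly used *Jak1* and *Stat3* overlapped between the groups (log2 fold change -0.07 and -0.01). Only *Irak1* of 7 adaptors of the TIR and IL-17 receptors (0.36, adjusted p = 0.0494 from edgeR's test) and only *Ptpn6*, a phosphatase of blood cells, of 10 feedback inhibitors (2.35, adjusted p = 0.0144 from edgeR's test) were higher. The inhibitors *Socs1* and *Socs3* were above the controls in every AAV5-*V1+V2* library and missed the threshold (1.86 and 0.97, adjusted p = 0.0517 and 0.0552 from edgeR's test). The median log2 fold changes of the ligands, shared chains, JAK and STAT genes, adaptors, and inhibitors were 0.65, 0.89, 0.49, 0.56, and 0.16. None of the calls in the JAK and STAT, adaptor, and inhibitor lists was kept without any 1 of the 3 AAV5-*Gfp* libraries. That of *Irak1* was also lost without AAV5-*V1+V2* replicate 1 and without replicate 2, and a JAK and STAT call not named here was lost without AAV5-*V1+V2* replicate 2.

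**Figure D5:**
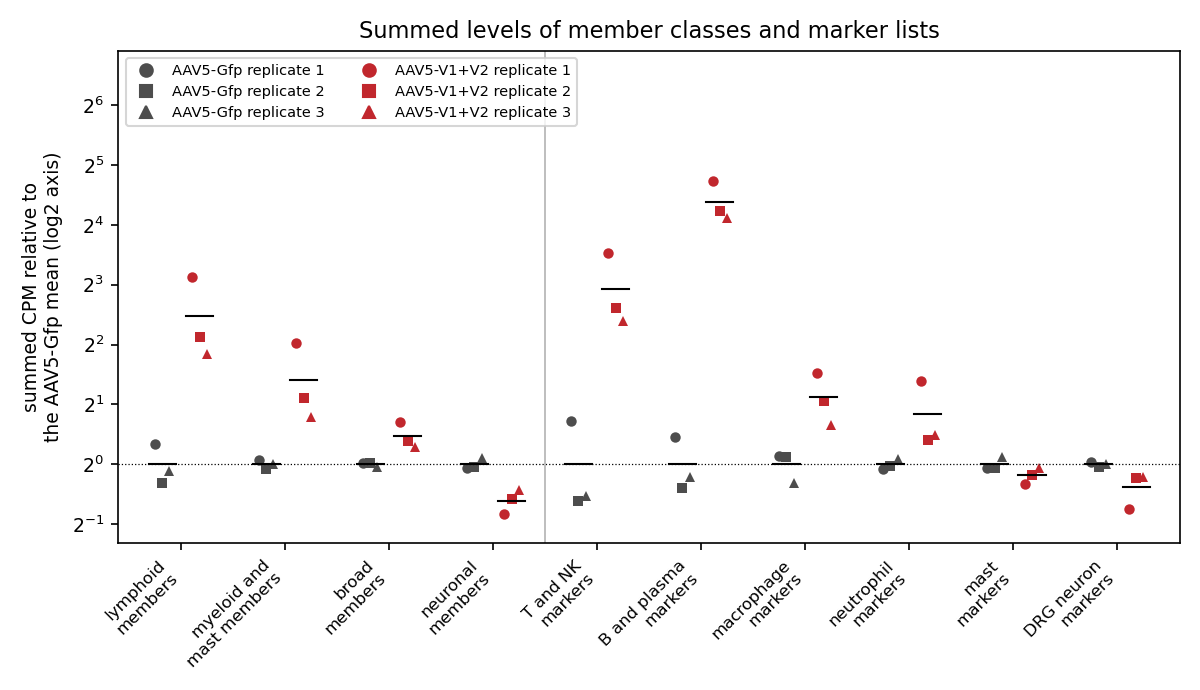
Summed CPM relative to the AAV5-*Gfp* mean (vertical log2 axis) of the 4 classes of interleukin receptor genes, left of the line, and of 6 lists of cell markers, right of it, in each library. Symbols mark replicates and short lines the mean of 3 libraries. The sum of the lymphoid receptor genes (15.7 to 24.6 against 69.8 to 171 CPM) is higher in every AAV5-*V1+V2* library. So is that of the myeloid and mast cell genes (15.8 to 17.5 against 28.8 to 67.8 CPM). The sum of the neuronal genes (235 to 261 against 137 to 181 CPM) is lower. *Il10ra* made up most of the myeloid and mast cell sum, with a mean of 9.11 of 16.7 CPM in AAV5-*Gfp* and 31.8 of 44.2 CPM in AAV5-*V1+V2* libraries. Of the 5 genes in that sum, 3 were not called.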

How the data were processed

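Total RNA of injected DRGs was sequenced from libraries of a stranded kit, 3 for each of the AAV5-*Gfp* and AAV5-*V1+V2* groups. The deposited values are the authors' raw counts of reads per gene symbol, whole numbers without normalization. The submitters' processing notes name the build GRCm38 (mm10). The aligner, the counter, the annotation, and the use of strand are not given in the sources used here.

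The counts were tested with edgeR 4.0.16 in R 4.3.3 (filterByExpr by group, TMM, glmQLFit, and glmQLFTest, without a covariate), and a gene was called at a p under 0.05 after Benjamini-Hochberg adjustment over all 18593 genes tested. An SE is the size of the coefficient over the square root of its F. CPM used TMM library sizes, and ratios added 0.5 counts. Loci and exon lengths came from GENCODE M21, matched for 41 of 41 genes. The calculations were tested on simulated data.

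The members and lists were chosen with earlier results of these data known. Values per library are given for called receptor genes, the neuronal genes, and *Il1rn*. Uncalled partner chains and the ligands and shared chains of called genes are given by values, and of each pathway list at most 3 called genes, those with the smallest adjusted p, are named. A gene that this rule names among the JAK and STAT genes is not reported here. *Jak1*, *Stat3*, *Socs1*, *Socs3*, *Kif3a*, *Clcf1*, *Cntfr*, *Lifr*, and the uncalled *Il3ra*, *Il1rl1*, *Il1r2*, and *Il5ra* were added after their values were seen. Alternatives were another normalization or filter, DESeq2 1.42.0, limma-voom 3.58.1, robust empirical Bayes, 2-fold and other thresholds, a replicate block, and fits that each left out 1 library.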

Additional observations from a re-analysis of the deposited data

How the results depend on the processing

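The direction of all 22 called genes was the same in the 16 alternative fits, and none of the 22 passed the threshold in all of them (6 to 14 fits each, median 13). The number of higher genes was 17 to 22 with another normalization, filter, or tool, against 20. The number of lower genes was 1, against 2, with total counts only and with limma-voom, both of which lost *Il31ra*, and 0 with a 2-fold change. Leaving out 1 library gave 0 to 22 higher and 0 to 2 lower genes. Without replicate 1 of both groups, a fit added after the data were seen, 18 genes were higher and 1 was lower. The median log2 fold change was 0.51 to 0.73 over all of these fits. Same-numbered libraries deviated together by correlations of 0.038, 0.065, and 0.139, so the numbers were not taken to pair them. The replicate block gave 20 higher and 2 lower receptor genes, and, beside these, 4 adaptors and 3 feedback inhibitors against 1 and 1. Genes near 0 that were not called changed sign. Leaving out 1 library gave values of -0.57 to 0.039 for *Il13ra2* (above 0 without AAV5-*Gfp* replicate 1 and, at 0.0065, without AAV5-*V1+V2* replicate 3), -0.021 to 0.090 for *Il17rb* (-0.017 without AAV5-*Gfp* replicate 1, -0.0053 without AAV5-*V1+V2* replicate 3), -0.30 to 0.13 for *Il17re*, -0.31 to 0.071 for *Il1r2* (0.047 without AAV5-*Gfp* replicate 3, 0.064 without AAV5-*V1+V2* replicate 2), and -0.055 to 0.032 for *Il1rap* (0.027 without AAV5-*Gfp* replicate 2). *Il17rb* was also at -0.0075 with upper quartile normalization, *Il17re* at 0.19 without replicate 1 of both groups, and, with total counts only, *Il1r2* at 0.0034 and *Il1rap* at 0.042. The cause of these changes was not tested. Exons shared with another gene make counts uncertain for *Il2rg* (30.5%, *Gm20489*), *Il10rb* (14.9%, *Gm21970*), and *Il4ra* (9.51%, *Gm44876*).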

Other observations

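By length of exon, the order of the receptor genes changed between the groups. In AAV5-*Gfp* DRGs the 5 genes with the highest levels were *Il1rapl1* (23.6 CPM per kilobase), *Il10rb* (7.66), *Il11ra1* (6.82), *Il4ra* (4.68), and *Il1r1* (3.81), and none of them is in the lymphoid class. In AAV5-*V1+V2* DRGs *Il1rapl1* was still the highest at 15.3. The genes that had moved past *Il1r1* (5.04) were *Il10ra* (2.60 to 9.10 CPM per kilobase), *Il21r* (0.883 to 6.62), *Il2rg* (0.439 to 5.74), and *Il13ra1* (3.46 to 5.22). Of these only *Il10ra*, of the myeloid and mast cell class, had also passed *Il4ra* (7.95). The 5 highest genes thus again held none of the lymphoid class. These levels use the union of all annotated exons as length, which understates genes with long rare transcripts, and neighbours in the order were not tested against each other.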
